A study of Mus musculus with 144 samples.

Results

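The regions described here are 2170 polyadenylation sites of mouse liver that were more abundant in polysomal RNA than in total RNA. They were taken from a list of 29199 filtered sites, of which they make up 7.43%. Levels are given in CPM, a library's site counts scaled to the same total for each library. A site was taken where its mean over the 30 polysomal libraries of replicates 2 to 6 was at least 1 CPM and at least 2.5 times its mean over the 36 libraries of wild-type total RNA plus 0.1 CPM. Of the 21707 sites with such a polysomal mean of at least 1 CPM, 10% were taken. These 2 means chose the sites, so their ratio is given as a description and carries no test. All livers came from male C57BL/6J mice with free access to food and water in 12 h of light and 12 h of dark. The wild-type livers gave 3 series, total RNA, nuclear RNA and polysomal RNA. The other series was total RNA from mice labelled Bmal1-/-, which lack a core activator of the circadian clock. Nuclei were collected through a sucrose cushion, and polysomes were separated on a sucrose gradient from frozen tissue in a buffer with cycloheximide. Each series had 6 libraries, numbered as replicates 1 to 6, per time point, at 2, 6, 10, 14, 18 and 22 h after the lights went on (zeitgeber time, ZT). Polysomal replicate 1 (6 libraries), nuclear RNA and the RNA labelled Bmal1-/- had no part in the choice.

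Most messenger RNAs end where the nascent transcript is cut and a poly(A) tail is added, usually downstream of an AAUAAA hexamer. Many genes hold several such sites, so their messages differ in the 3′ untranslated region or, when a site lies upstream within the gene, also in the coding sequence. Messages under translation carry several ribosomes and sediment as polysomes, so the polysomal fraction samples the RNAs being translated, while total RNA also holds nuclear and untranslated cytoplasmic RNA. The libraries were primed on poly(A), and such priming can also start at runs of A within a transcript.

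A library's summed site counts ran from 1742356 to 10477400 in polysomal replicates 2 to 6, from 2677737 to 6326351 in polysomal replicate 1, from 4079501 to 7771094 in wild-type total RNA, from 1404964 to 5720115 in nuclear RNA and from 3175685 to 12217394 in total RNA labelled Bmal1-/-. At gene level, Arntl, which encodes BMAL1, was counted at 6.73 ± 5.40 CPM in wild-type total RNA and at 11.5 ± 2.98 CPM in the libraries labelled Bmal1-/- (SD, n = 36 each). Which part of the gene was deleted is not given in the sources used here, and a tag at the 3′ end checks nothing if it lies outside that part. The 6 hepatocyte markers were detected in all series. Their summed level had a median of 74714 CPM in wild-type total RNA, against 35316 CPM in polysomal replicates 2 to 6. Median Alb fell from 48524 to 20536 CPM, Ttr from 10312 to 5678, Fgb from 6768 to 3091 and Cps1 from 673 to 420. Apoa1 (3549 and 3121 CPM) and Cyp2e1 (2245 and 2209 CPM) differed less, so the 6 did not share the fall alike. The summed median was 51893 CPM for polysomal replicate 1, 42302 CPM for nuclear RNA and 64202 CPM for the libraries labelled Bmal1-/-. The labels do not say that the samples came from separate animals, so the p-values below measure the spread between these samples, which may be technical. The polysomal library of replicate 3 at ZT2 held 5422 CPM of 8 exocrine pancreas genes, against 1776 CPM in the next highest polysomal library. Without it the rule took 2187 sites, of which 2126 were among the 2170. Polysomal replicate 1 stood apart by airway and lung genes. Of 6 markers listed for them, Scgb1a1 ran from 29.9 to 654 CPM, Sftpc from 25.8 to 261 CPM, Scgb3a2 from 1.22 to 13.4 CPM and Scgb3a1 from 1.06 to 16.0 CPM over its 6 libraries. The first 3 had no mean above 0.144 CPM and Scgb3a1 none above 0.222 CPM in the other series or polysomal replicates 2 to 6. Sftpb was at 0 in all libraries, and Cyp2f2, which liver also expresses, was high in all. The 6 summed to 1050 to 1909 CPM in replicate 1 and to 491 to 1329 CPM in replicates 2 to 6.

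Sequence around a site could be read only where a 300-base promoter window of RefSeq (GRCm38.p6) happened to cover it, which held for 21 of the 2170 sites and 72 other sites. The hexamer AATAAA was searched on the site's strand in the 40 bases before the site's 3′ end. It stood before 7 of the 21 sites (33.3%) and before 27 of the 72 others (37.5%). Of the 9 covered sites that lay at the end of their own gene, 7 had it, against 24 of 44 other sites there. Sites of this kind are shown first, in 30 bases ending at the site, with the hexamer in capitals, for Pusl1 (chr4:155888858-155888868, minus strand), a pseudouridine synthase-like gene whose polysomal mean was 11.4 times its wild-type total mean plus 0.1 CPM, and for Rnasek (chr11:70238122-70238241, minus strand), Pdpk1 (chr17:24073679-24073698, minus strand) and Tmem82 (chr4:141614231-141614245, minus strand).
Pusl1: gagtaggAATAAAagacatagagaacaaaa
Rnasek: tacAATAAAaagaagcggttccccctaagc
Pdpk1: tcttgtAATAAAagcatgtagagtgtacac
Tmem82: cgaagacAATAAAggtgacttttctcaacc

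The hexamer began 23 bases before the end of the site in Pusl1 and Tmem82, 24 in Pdpk1 and 27 in Rnasek. In 5 of the 21 covered sites (23.8%) and 7 of the 72 others (9.72%), the 10 bases just after the site held 6 or more A on the site's strand, which is a place where poly(A) priming within a transcript could start. All 5 lay in the first 50% of their own gene, as did 4 of the 7 others. Of these, 4 are shown as the last 20 bases of the site's end and, in capitals, the 10 bases after it, together with Abcd3, a site near a gene start with 1 A in those 10 bases, shown without capitals. The positions are chr7:3645428-3645488 for Cnot3, chr10:75518065-75518102 for Snrpd3 and chr11:86201409-86201420 for Brip1os on the plus strand, and chr10:24922627-24922693 for Arg1 and chr3:121815010-121815071 for Abcd3 on the minus strand.
Cnot3: ggcgcgaggaaagaggaaaaAAAAAAAAAA
Snrpd3: tttgtgccagaaccggaaaaAAAATAAAGC
Brip1os: acatttgcttgaaggaaaaaAAAAAATTCT
Arg1: tctgctggaaaaacttaaagAAACAGGTAA
Abcd3: tcgcgccctcggcctgcacgggtgaggctc

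The 10 bases after the site were all A in Cnot3, a subunit of the deadenylase complex, and held 7 A in Snrpd3 and 6 in Brip1os and Arg1. A match of letters is a description and identifies no site of priming or cleavage, and the sites not covered by a window were not read.

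The sites covered a wide range of levels. Their median was 9.83 CPM in polysomal replicates 2 to 6 and 2.81 CPM in wild-type total RNA, while the 19537 other sites of at least 1 CPM had medians of 5.08 and 5.86 CPM. The ratio that chose them had a median of 3.12, quartiles of 2.74 and 3.78 and a range from 2.5 to 30.4, against a median of 1.04 over the other sites. Together the sites held 9.11 to 14.2% of a library's site counts in polysomal replicates 2 to 6 and 2.99 to 4.59% in wild-type total RNA. In 309 of them every polysomal library of replicates 2 to 6 lay above every library of wild-type total RNA. This held for 370 of the 21707 sites with a polysomal mean of at least 1 CPM. The choice of the sites favours such a gap. The median site had 7.49% of its summed polysomal CPM in its highest library. No site had over 50% in 1 library, and 19 had over 20%. Taken by replicate, 815 of the sites passed 2.5 times in each of the 5 replicates, 446 in 4, 604 in 3, 289 in 2 and 16 in 1.

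**Figure D1:**
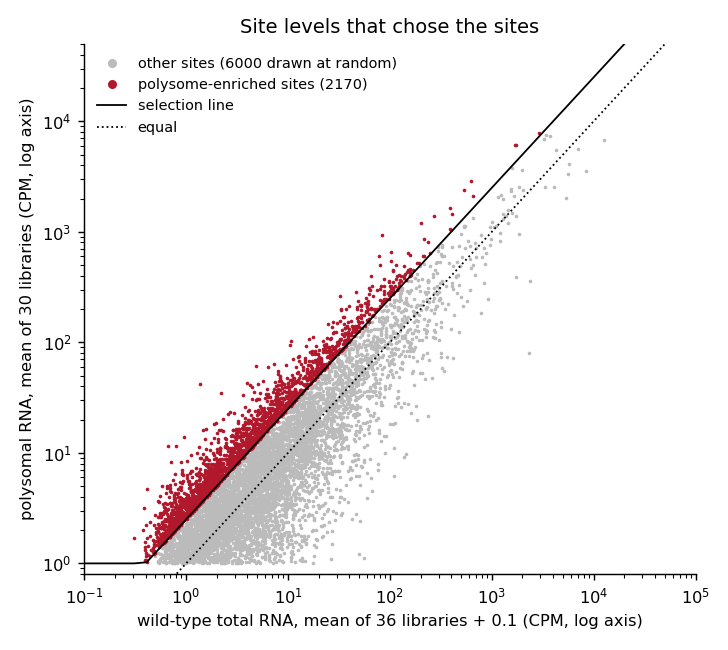
Mean level of each site in wild-type total RNA plus 0.1 CPM (x axis, 36 libraries) and in polysomal replicates 2 to 6 (y axis, 30 libraries), both in CPM on log axes. Red points are the 2170 polysome-enriched sites and grey points are 6000 other sites drawn at random. The solid line is the selection line and the dotted line marks equal levels, so the red points lie above the solid line because they were chosen by it.

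The most abundant of the sites lay at Chchd2, a gene of a mitochondrial intermembrane space protein (chr5:129881149-129881381, within 100 bases of the gene end). Its polysomal libraries of replicates 2 to 6 ran from 5657 through a median of 7741 to 11956 CPM, and those of wild-type total RNA from 2318 through 2859 to 4466 CPM. Every such polysomal library was above every total library, and the respective means were 7794 ± 1275 CPM (SD, n = 30) and 2884 ± 411 CPM (SD, n = 36). Polysomal replicate 1 had a mean of 5084 CPM and a range from 3283 to 7526 CPM, nuclear RNA a mean of 2967 CPM and total RNA labelled Bmal1-/- a mean of 2603 CPM. Igfbp4, which encodes a secreted carrier of insulin-like growth factors (chr11:99052288-99052661), had 2073, 5437 and 11794 CPM as the lowest, median and highest polysomal library and 1210, 1682 and 2296 CPM in wild-type total RNA. The lowest polysomal library of Igfbp4 thus fell within the range of total RNA. After these sites and that of Hba-a2 came Actb, cytoplasmic beta-actin (chr5:142903730-142903944). It lay 615 bases before the gene end, with 1569, 2727 and 4788 CPM in the polysomal libraries and 186, 602 and 859 CPM in wild-type total RNA, so the groups did not overlap. This site took 68.8% of the site counts of Actb in polysomal RNA and 43.7% in wild-type total RNA. Fxyd1, a small membrane regulator of the sodium pump, averaged 1189 CPM in polysomal and 201 CPM in wild-type total RNA, Nme2, a nucleoside diphosphate kinase, 2410 and 528 CPM, Creg1 2129 and 649 CPM and Itm2b 1448 and 406 CPM.

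A site of Hba-a2, an alpha-globin gene (chr11:32297157-32297324), stood among the most abundant with a polysomal mean of 6155 ± 2821 CPM (SD, n = 30) and a wild-type total mean of 1732 ± 1388 CPM (SD, n = 36). Its groups overlapped, with 1837 to 12377 CPM against 289 to 8579 CPM. The beta-globin site of Hbb-bt averaged 638 and 149 CPM. Globin message belongs to red cells: the 5 red cell markers summed to medians of 7804 CPM (2157 to 20820) in polysomal replicates 2 to 6, 9611 CPM in polysomal replicate 1, 2585 CPM (546 to 13134) in wild-type total RNA, 1985 CPM in nuclear RNA and 1464 CPM in total RNA labelled Bmal1-/-, with none of the 5 at 0 in polysomal RNA. The differences between these sums are mainly those of the globin genes. Alas2, the marker that is no globin, had medians of 108 CPM in polysomal replicates 2 to 6 and 86.1 CPM in replicate 1. Its medians were 85.6 CPM in wild-type total RNA, 101 CPM in nuclear RNA and 44.6 CPM in total RNA labelled Bmal1-/-. In bulk samples fewer cells of a type and less RNA per cell cannot be told apart, and the part of blood in these values was not tested.

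The highest ratio belonged to a site of Pfn1, the actin-binding protein profilin (chr11:70651968-70651979). Its polysomal mean was 30.4 times the wild-type total mean plus 0.1 CPM. The polysomal libraries ran from 3.29 through a median of 29.4 to 183 CPM and those of wild-type total RNA from 0 to 4.55 CPM. The lowest polysomal libraries therefore lay within the range of total RNA although the medians were far apart. The other Pfn1 site (chr11:70651871-70651888, at the gene end) had a ratio of 11.0 and a polysomal mean of 16.2 CPM. Plac8 (chr5:100553726-100553740) had 15, 34.3 and 64.5 CPM as the lowest, median and highest polysomal library and at most 7.50 CPM in wild-type total RNA, with no overlap. Its site took 82.5% of the site counts of Plac8 in polysomal RNA and 28.4% in wild-type total RNA. Arf5, a small GTPase of Golgi traffic (chr6:28426552-28426625), ran from 401 through 923 to 1959 CPM in polysomal RNA and from 51.5 through 81.4 to 125 CPM in wild-type total RNA, again with no overlap. A site of Arf1, of the same GTPase family, averaged 61.3 CPM against 4.72 CPM. Timm22, the channel of a carrier import complex in the mitochondrial inner membrane, averaged 8.31 against 0.618 CPM at its most enriched site, and a site of Zfp87, a zinc finger gene, had a ratio of 14.9.

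Cox20, which encodes an assembly factor of respiratory complex IV (chr1:178322631-178322646), had levels that parted between the polysomal replicates. Its libraries of replicates 2 to 6 ran from 1.56 through 9.12 to 30.2 CPM. All 6 libraries of polysomal replicate 1 lay between 0 and 0.490 CPM, below every library of replicates 2 to 6. Wild-type total RNA averaged 0.559 CPM and nuclear RNA 0.0304 CPM. The site took 21.5% of the Cox20 counts in replicates 2 to 6, 0.680% in replicate 1 and 2.39% in wild-type total RNA.

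**Figure D2:**
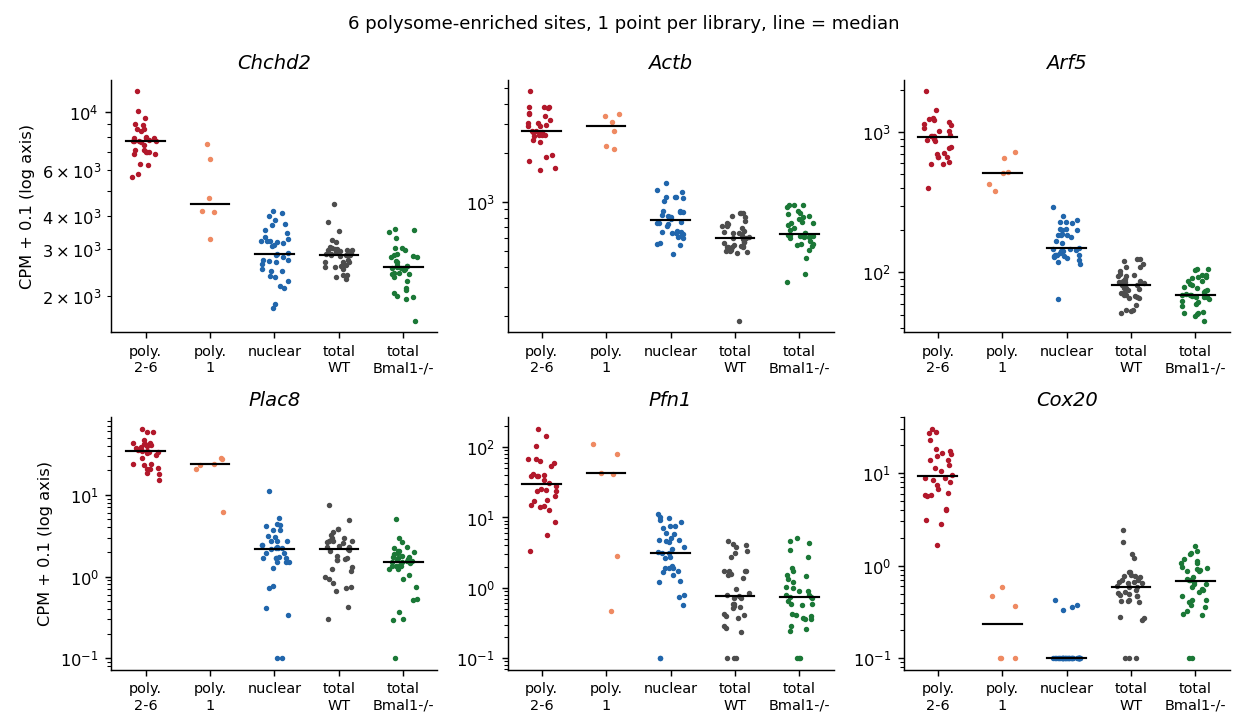
Levels of 6 polysome-enriched sites in CPM plus 0.1 on a log axis, with 1 point per library and a line at each group's median, for polysomal replicates 2 to 6, polysomal replicate 1, nuclear RNA, wild-type total RNA and total RNA labelled Bmal1-/-. Chchd2, Arf5 and Plac8 show polysomal replicates 2 to 6 above all wild-type total libraries, while for Cox20 replicate 1 lies below replicates 2 to 6, at 0 to 0.490 CPM.

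By position in the RefSeq gene spans, 2157 of the sites lay in a gene, of which 2103 were in protein-coding genes, 39 in pseudogenes and 15 in lncRNA genes. The other 13 were in no gene on their strand. Exons, introns and untranslated regions could not be assigned, because the annotation used here holds gene spans alone. Of the 2170 sites, 876 (40.4%) lay within 100 bases of the annotated gene end, against 36.2% of the 19537 other sites of at least 1 CPM. Another 966 (44.5%) lay in the later 50% of the span, against 52.4%. The first part, which is the first 50% of the span without its first 1000 bases, held 186 sites (8.57%, against 6.65%), and the first 1000 bases held 101 (4.65%, against 2.52%). Within 300 bases of the gene start lay 50 sites (2.30%, against 1.03%). In genes with 2 or more sites, 870 of 1980 sites (43.9%) were the most 3′ site of their gene, against 32.6% of 17424 other sites. The sites were also narrower, with a median width of 34 bases against 61. These shares are descriptions with no test.

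**Figure D3:**
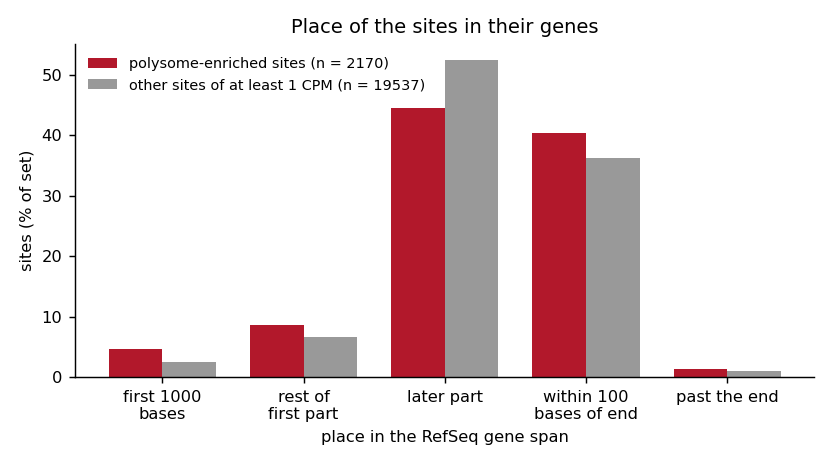
Share of sites (% of each set) in 5 places along the RefSeq gene span, for the 2170 polysome-enriched sites in red and the 19537 other sites of at least 1 CPM in grey. The red bars are higher in the first 1000 bases (4.65 against 2.52%), in the rest of the first part (8.57 against 6.65%) and within 100 bases of the end (40.4 against 36.2%), and lower in the later part (44.5 against 52.4%).

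The enriched sites near a gene start had the higher levels by median. The median polysomal level was 15.3 CPM for the 101 sites in the first 1000 bases, 13.8 CPM in the first part, 8.09 CPM in the later part and 11.6 CPM at the gene end. Among the most abundant was a site of Rgn, regucalcin, a calcium-binding liver enzyme (chrX:20549836-20549861), 95 bases from the annotated gene start. It had 126, 249 and 711 CPM as the lowest, median and highest polysomal library and a median of 34.4 and a highest library of 62.4 CPM in wild-type total RNA, with no overlap. It took 17.9% of the Rgn site counts in polysomal RNA and 3.41% in wild-type total RNA. The site of Abcd3, a peroxisomal ABC transporter, averaged 168 CPM against 34.4 CPM and took 28.3% against 5.58% of its gene's counts. The site of Lrp1, an endocytic lipoprotein receptor, averaged 107 against 15.8 CPM and took 58.8% against 8.43%. Sites in the first 1000 bases of major urinary protein genes such as Mup16, at 34.0 against 6.32 CPM, are uncertain, because reads from near-identical Mup copies can be split between them.

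The gene counts describe how far the level of a whole gene went with that of its enriched site. Reads of an enriched site can count toward its gene, so a high gene ratio follows in part from the choice. In 177 genes the enriched site was the only site. Of 2145 sites whose gene had a row in the gene table, 686 (32.0%) were in genes whose own polysomal mean was at least 2.5 times the wild-type total mean. In 531 (24.8%) the gene ratio was under 1.5, and in 174 of these it was under 1. The median gene ratio was 2.08 for the sites and 1.08 for other sites. It was 2.29 for sites at the gene end, 1.98 in the later part, 1.70 in the first part and 1.85 in the first 1000 bases. Where a gene had 2 or more sites, a median of 30.8% of its counts fell on the enriched site in polysomal replicates 2 to 6, 27.5% in polysomal replicate 1, 25.4% in nuclear RNA, 15.3% in wild-type total RNA and 15.5% in total RNA labelled Bmal1-/-. The rise from 15.3% to 30.8% follows in part from the choice of the sites, as it does for single sites named here. Such shares were not taken for other sites.

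Timm17b, a subunit of the inner membrane import channel (chrX:7906653-7906872), was a case in which the site held nearly all of its gene's site counts, so that its high gene ratio follows from the choice. Its site held 98.7% of the gene's counts in polysomal and 97.0% in wild-type total RNA, with libraries from 181 to 371 CPM and from 34.7 to 57.4 CPM, and the gene ratio was 5.92. Apob, the large structural protein of liver lipoproteins (chr12:8006682-8006852), was a case of the other kind. Its site averaged 156 CPM in polysomal and 41.8 CPM in wild-type total RNA while the gene ratio was 0.853, and its share of the gene's counts was 22.2% against 4.89%. The site of Ybx1, a cold shock domain protein that binds messenger RNA (chr4:119278161-119278191), averaged 146 against 35.7 CPM with a gene ratio of 0.905, and its share was 56.1% against 11.8%. For Arg1, the urea cycle enzyme arginase, whose site of 6 A is printed above, the means were 101 and 30.2 CPM and the shares 12.1% and 2.54%.

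The 2157 sites in genes fell in 1743 genes. Of these genes, 1422 held 1 enriched site, 255 held 2 and 66 held 3 or more, and 1511 also had sites that were not enriched. In 55 genes with several sites all of them were enriched. One such gene was Vgll4, a transcription cofactor, where all 5 sites averaged 9.42 to 23.0 CPM in polysomal RNA and 2.04 to 4.77 CPM in wild-type total RNA. Sdc4, the cell surface proteoglycan syndecan-4, held 6 enriched sites of its 9. Their polysomal means ran from 12.6 to 300.3 CPM, and the gene ratio was 4.01. Sppl2a, an intramembrane protease, held 6 of its 13, of which 3 in the first part averaged 68.3, 78.0 and 27.3 CPM in polysomal RNA and 3 in the later part 9.81, 28.9 and 7.52 CPM. Serf2 held 5 of 7, with gene ratio 1.5, and Gnpnat1, an enzyme of the hexosamine pathway, 5 of 6, with gene ratio 2.69. Sites of 1 gene share their source and are not replicates of each other.

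Gene families, taken by symbol, differed in how many of their sites of at least 1 CPM were enriched, against 10% over all such sites. The families with the larger shares were those of mitochondrial import (Timm and Tomm genes, 11 of 51 sites, 21.6%), the Tmem membrane protein genes (50 of 267, 18.7%) and the Rab and Arf GTPases of vesicle traffic (28 of 161, 17.4%). Major urinary protein genes gave 7 of 46 (15.2%). Solute carriers followed with 54 of 401 (13.5%) and complex I subunits with 15 of 115 (13.0%). Mitochondrial ribosomal proteins (18 of 167, 10.8%), zinc finger genes (27 of 249, 10.8%) and complexes III, IV and V (13 of 116, 11.2%) were near the share over all sites. Proteasome subunits (9 of 137, 6.57%), translation initiation factors (9 of 160, 5.63%) and apolipoproteins (2 of 42, 4.76%) were below it, as were cytochromes P450 (5 of 142, 3.52%), and no site of a serpin gene was taken of 43. Cytosolic ribosomal proteins gave 3 of 219 (1.37%), and the median ratio over their 219 sites was 0.294. Those 3, named after their values were seen, were sites of Rpl19 and of 2 genes with similar symbols, Rps27l and Rpl7l1. The Rpl19 site averaged 16.0 CPM against 4.31 CPM and held 56.5% of that gene's counts in polysomal RNA against 14.5% in wild-type total RNA. These shares follow from the selection and were not tested.

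Polysomal replicate 1, which the selection did not use, was compared with total RNA labelled Bmal1-/-, also not used. Genotype and fraction both differ in this comparison and cannot be told apart. At the enriched sites total RNA labelled Bmal1-/- lay near that of the wild type, with a median ratio of 0.978 and quartiles of 0.829 and 1.13. The rule took sites low in wild-type total RNA against polysomal RNA. A shift to higher values in this comparison therefore follows in part from the choice. The 6 libraries of polysomal replicate 1 are those that carry the airway and lung genes above, whose part in its comparisons was not tested. The comparison of nuclear RNA with total RNA labelled Bmal1-/-, below, uses none of these libraries. Of the 2170 sites, 1697 were higher and 34 lower in polysomal replicate 1 (edgeR quasi-likelihood test with Benjamini-Hochberg adjustment over 25022 sites, adjusted p under 0.05), while over all 25022 sites 27.1% were higher and 32.6% lower, 59.7% in all. The median log2 difference was 1.33 over the enriched sites and -0.10 over all. The 25022 sites had at least 1 CPM in polysomal replicates 2 to 6 or in wild-type total RNA. Of the 2170, 1689 reached this level in wild-type total RNA, and the rest were tested through the polysomal libraries alone. The 25022 also hold sites that passed in wild-type total RNA alone, so the shares over all sites are no matched background. The same sites were tested in the comparisons with nuclear RNA below. By place, the median over the enriched sites was 1.46 at the gene end (763 of 876 higher, 5 lower). It was 1.26 in the later part (732 of 966 higher, 14 lower) and 1.04 in the first part (118 of 186 higher, 7 lower). In the first 1000 bases it was 0.91 (51 of 101 higher, 8 lower). Over other sites with a polysomal mean of at least 1 CPM in replicates 2 to 6, the medians also fell toward the gene start. In the same order they were 0.13, -0.13, -0.58 and -0.62, so the fall is not particular to the enriched sites. The site of Arf5 had 379 to 718 CPM in polysomal replicate 1 and 45.0 to 106 CPM in total RNA labelled Bmal1-/-, a log2 difference of 3.08 (SE 0.13, adjusted p 2.01e-23). The Actb site had 2113 to 3464 CPM against 323 to 960 CPM, a log2 difference of 2.22 (SE 0.12, adjusted p 9.69e-20). For Rgn near the gene start the log2 difference was 2.07 (SE 0.18, adjusted p 1.90e-13). That of Aamp, also in the first 1000 bases, was 0.07 (SE 0.31, adjusted p 0.852), although its polysomal mean in replicates 2 to 6 was 157 CPM against 32.6 CPM in wild-type total RNA.

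Among the called sites, the largest log2 differences were those of Smim22 (6.30), Pusl1 (5.46), Pfn1 (5.30), Nat8, an acetyltransferase (5.26), and Mup16 (5.01). For Smim22 and Nat8 the level labelled Bmal1-/- was far below wild-type total RNA as well, with means of 0.236 against 3.86 CPM and 1.01 against 42.8 CPM. For Pfn1 it was 1.09 against 1.27 CPM. The Pfn1 libraries of polysomal replicate 1 ran from 0.373 through 42.2 to 111 CPM, so the lowest of them lay within the range of total RNA, 0 to 4.93 CPM in the libraries labelled Bmal1-/-. The lowest differences were those of Cdkn1a, the cell cycle inhibitor p21 (-3.29), Map2k3 (-2.91), Supv3l1 (-2.75), H3f3b (-2.28) and Ulk2 (-2.25). The Cdkn1a site (chr17:29099453-29099589) averaged 72.8 CPM in polysomal replicates 2 to 6, 16.7 CPM in replicate 1, 182 CPM in total RNA labelled Bmal1-/- and 25.6 CPM in that of the wild type. The other 4 had means under 1 CPM in polysomal replicate 1. For Cox20 the log2 difference was -1.78 (SE 0.67, adjusted p 0.0204).

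Against wild-type total RNA, which the selection used, the levels of the other series are a description. The median ratio to wild-type total RNA plus 0.1 CPM was 2.16 in polysomal replicate 1, 1.28 in nuclear RNA and 0.978 in total RNA labelled Bmal1-/-. For other sites these medians were 0.868, 0.643 and 1.0. In polysomal replicate 1, 815 of the sites passed 2.5 times and 94 were below wild-type total RNA. The median ratios of replicates 2 to 6 in turn were 3.20, 3.49, 2.98, 2.98 and 3.12, all above that of replicate 1. Replicates 2 to 6 chose the sites and replicate 1 did not, so a lower ratio there follows in part from the choice. The labels give no batch for replicate 1.

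In nuclear RNA the sites fell on both sides of total RNA. Of the 2170 sites, 361 had a nuclear mean of at least 2.5 times wild-type total RNA plus 0.1 CPM and 758 had a nuclear mean below wild-type total RNA. Against total RNA labelled Bmal1-/-, 1316 were higher and 341 lower in nuclear RNA (edgeR, adjusted p under 0.05), while over all sites 34% were higher and 44.9% lower, 79% in all, and the median log2 difference was 0.74 against -0.20. Here too genotype and fraction cannot be told apart, and a shift to higher values follows in part from the choice. With library totals in place of TMM factors (trimmed mean of M values, the usual edgeR scaling) the median over all sites moved to -0.56, and 1084 of the enriched sites were higher and 548 lower. Over all 25022 sites, 6316 were then higher and 13892 lower. Higher sites were 79.4% of the enriched sites called with TMM and 66.4% without, against 43.1% and 31.3% of all sites called. Tmem205 (chr9:21921004-21921348) was a site high in both fractions, with a nuclear mean of 1355 CPM, a mean of 1656 CPM in polysomal replicate 1 and 404 CPM in total RNA labelled Bmal1-/-. Its nuclear libraries, from 556 to 2412 CPM, did not overlap those labelled Bmal1-/-, from 313 to 542 CPM, and the log2 difference was 2.14 (SE 0.09, adjusted p 1.94e-34). Nme2 differed in the other direction, with 317 CPM in nuclear RNA and 542 CPM in total RNA labelled Bmal1-/-, a log2 difference of -0.39 (SE 0.08, adjusted p 1.34e-05).

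Called sites with large nuclear differences were those of Nat8 (6.14), Smim22 (5.22), Clstn3 (5.13) and Nat8f5 (4.77). The lowest were those of Lgalsl (-3.74), Cnih1 (-3.62), 4932441J04Rik (-3.53), Sh3bgrl (-3.49) and Akirin1 (-3.45). Lgalsl averaged 0.186 CPM in nuclear RNA and 3.24 CPM in total RNA labelled Bmal1-/-. Clstn3, like Nat8 and Smim22, was low in the libraries labelled Bmal1-/- themselves, with a mean of 0.400 CPM against 4.19 CPM in wild-type total RNA.

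At 149 of the sites the nuclear mean was above the polysomal mean. Examples, named after their values were seen, were Ugt2b1, a glucuronosyltransferase (718 CPM nuclear, 418 CPM polysomal, 139 CPM wild-type total), and Slc7a2, a carrier of cationic amino acids (155, 57.0 and 18.7 CPM). Within wild-type samples, polysomal replicate 1 was compared with nuclear RNA. Of the 2170 sites, 885 were higher and 277 lower in polysomal replicate 1 (edgeR, adjusted p under 0.05), while over all sites 27.1% were higher and 26.1% lower, 53.1% in all, with median log2 differences of 0.51 and 0.05. With library totals in place of TMM factors the median over all sites was 0.36, with 1146 of the enriched sites higher and 176 lower. Over all 25022 sites, 8886 were then higher and 5076 lower. Higher sites were then 86.7% of the enriched sites called, against 76.2% with TMM. Among all sites called these shares were 63.6% and 50.9%. Hbb-bt was among the higher sites, with 542 CPM in polysomal replicate 1 and 43.8 CPM in nuclear RNA (log2 difference 3.20, adjusted p 5.43e-12). The Ugt2b1 site was among the lower, with a log2 difference of -1.95 (adjusted p 1.13e-05).

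**Figure D4:**
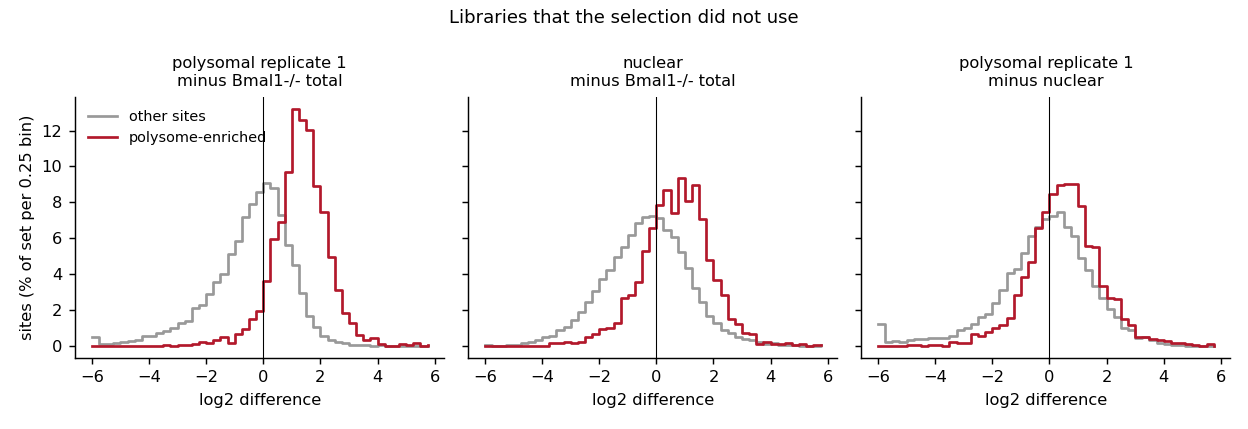
Distribution of log2 differences over sites in 3 comparisons of libraries that the selection did not use, as the share of sites (%) per bin of 0.25, for the polysome-enriched sites in red and the other tested sites in grey. The red curves lie to the right of the grey ones, with medians over the enriched sites of 1.33 (polysomal replicate 1 minus total RNA labelled Bmal1-/-), 0.74 (nuclear minus the same) and 0.51 (polysomal replicate 1 minus nuclear). The first 2 comparisons share the libraries labelled Bmal1-/-. At the enriched sites these lay near wild-type total RNA, which the selection used, so the shift in those comparisons follows in part from the choice.

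In total RNA labelled Bmal1-/- the median site lay at 2.89 CPM, against 2.81 CPM in wild-type total RNA. At 18 of the 2170 sites it was at least 2.5 times wild-type total RNA plus 0.1 CPM, and at 12 it exceeded the polysomal mean. These 12, listed after their values were seen, were sites of Cdkn1a, Mup2, Cyp2c55, Cyp2c39, Grk5, Defb1, Cd9, 1110004F10Rik and 1810037I17Rik and 3 sites of Lrtm1. The Lrtm1 site in the first 1000 bases averaged 61.5 CPM in total RNA labelled Bmal1-/-, 41.8 CPM in polysomal replicates 2 to 6, 29.2 CPM in nuclear RNA and 15.1 CPM in wild-type total RNA. Cyp2c39, a cytochrome P450, averaged 11.6, 11.1, 38.5 and 2.04 CPM in the same order.

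The selection averaged over the day, so change with time within a series was not part of it. The sites' summed share of the site counts in polysomal replicates 2 to 6 averaged 11.0% at ZT2, 10.6% at ZT6, 11.9% at ZT10, 12.2% at ZT14, 12.7% at ZT18 and 12.2% at ZT22. A curve of 24 h was called at 43 of the 2170 sites in polysomal replicates 2 to 6 (edgeR, adjusted p under 0.05 over 21707 sites), which is 1.98%, against 1.82% of all tested sites. DESeq2 called 112 of the 2170, edgeR with time as 6 levels 15, and edgeR without polysomal replicate 2, 5 or 6 called 25, 16 and 16. The counts over all sites changed too under these fits and stand beside these with the dependence on processing. The shares of 1.98% and 1.82% are those of the main fit alone. Of the 43 themselves, DESeq2 called 43, the fit with replicate number as a block 43, the fit with 6 levels 14, and the fits that left out 1 replicate 16 to 28. The main fits leave replicate number out, and the fit with the block called more sites in all, as given with the dependence on processing. The fitted ratio of peak to trough had a median of 2.20 over the 43 sites and ran from 1.71 to 24. The 43 sites lay in 38 genes. Fitted peaks fell between ZT4 and ZT8 at 5 sites, between ZT8 and ZT12 at 7, between ZT12 and ZT16 at 9, between ZT16 and ZT20 at 14 and after ZT20 at 8, with 0 before ZT4. Of the 43, 72.1% peaked in the dark, against 50.3% of all sites called in polysomal RNA. In wild-type total RNA 162 of the 1689 enriched sites tested were called (9.59%, against 9.32% of all), and in nuclear RNA 26 of 1793 (1.45%, against 2.18%). Without replicate 2, 3, 5 or 6 the former count was 77, 96, 96 and 99, and without replicate 2 or 6 the latter was 16 and 15. Counts over all sites under such fits are given, as ranges, with the dependence on processing. In total RNA labelled Bmal1-/- edgeR called 0 of 1666, against 0% of all sites, and DESeq2 also called 0. At an unadjusted p under 0.05 in edgeR were 38 of these 1666 enriched sites, against 725 of all 23464 sites tested. Of the 43 sites, 23 of 43 tested were also called in wild-type total RNA and 11 of 42 in nuclear RNA, and each of these peaked within 4 h of its polysomal peak. The same overlap was not counted over all 396 sites called in polysomal RNA, so it does not set the enriched sites apart. Whether the curves differ between series was not tested.

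The lowest p belonged to Usp2, a deubiquitinase gene known to be driven by the clock in liver (chr9:44095298-44095314). Its polysomal means at ZT2, 6, 10, 14, 18 and 22 were 1.27, 4.0, 54.9, 29.7, 10.7 and 6.09 CPM (SD 0.406, 3.02, 16.9, 11.2, 3.59 and 3.96, n = 5 each). The level rose steeply to ZT10 and fell over the dark phase, with a fitted ratio of 23.9 and a peak at ZT13.0 (adjusted p 2.70e-06 in edgeR). Polysomal replicate 1, outside the fit, had 0.757, 0.632, 41.4, 38.4, 30.9 and 11.6 CPM at the same times. Nuclear RNA was higher than polysomal RNA at all 6 times, with 2.44, 25.2, 104, 60.0, 56.1 and 11.2 CPM and a fitted ratio of 23.6 (adjusted p 3.39e-05). Wild-type total RNA had 0.228, 2.37, 14.9, 10.5, 6.07 and 2.52 CPM and a fitted ratio of 18.1 (adjusted p 4.40e-06). In total RNA labelled Bmal1-/- the means stayed between 0.933 and 2.00 CPM, and no rhythm was called. The other Usp2 site (chr9:44094029-44094051) was called in polysomal RNA too (adjusted p 0.000604). From polysomal replicates 2 and 3 alone neither Usp2 site was called (adjusted p 0.341 and 0.605).

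Tspan4, a tetraspanin of the plasma membrane (chr7:141493232-141493429), averaged 69.5, 62.3, 82.7, 138, 154 and 128 CPM over the same times, lowest in the light and highest in the dark (ratio 2.80, adjusted p 0.000179). In wild-type total RNA it had 23.3, 26.8, 37.8, 56.1, 50.5 and 48.5 CPM (ratio 2.44, adjusted p 5.56e-07), and in nuclear RNA the adjusted p was 0.0560. Tars, threonyl-tRNA synthetase, was called at a site 174 bases from its gene start (chr15:11399484-11399581), with 27.6, 16.8, 12.9, 19.2, 30.1 and 52.4 CPM, highest at ZT22 (ratio 3.68, adjusted p 0.000800). The gene as a whole had a polysomal to total ratio of 0.53, and the site had an adjusted p of 0.156 in wild-type total RNA and 0.183 in nuclear RNA. Trib3, a stress-induced pseudokinase (chr2:152337422-152337440), had 4.69, 7.71, 12.8, 1.92, 1.86 and 1.60 CPM, high in the light (ratio 8.04, adjusted p 0.00106, and 0.406 from polysomal replicates 2 and 3 alone). It was called in wild-type total RNA (ratio 7.03, adjusted p 0.00279) and in nuclear RNA (ratio 8.40, adjusted p 0.000539) as well.

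**Figure D5:**
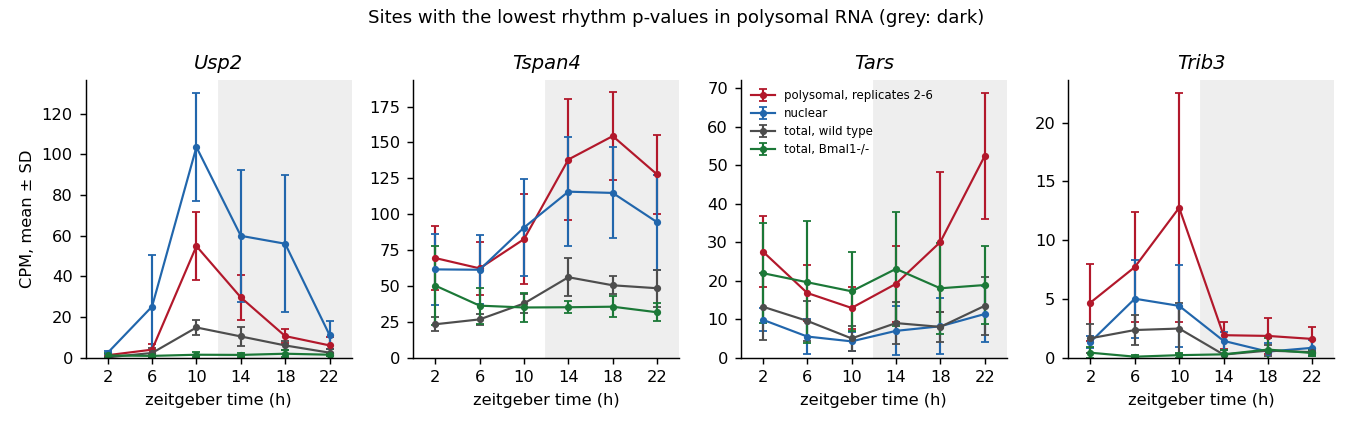
Levels in CPM (mean ± SD) of 4 polysome-enriched sites with the lowest rhythm p-values, 1 per gene, over zeitgeber time in hours, for polysomal replicates 2 to 6 (n = 5 per time), nuclear RNA, wild-type total RNA and total RNA labelled Bmal1-/- (n = 6 per time), with the dark phase in grey. Usp2 is highest at ZT10 in polysomal, nuclear and wild-type total RNA and stays between 0.933 and 2.00 CPM in total RNA labelled Bmal1-/-. The polysomal level of Tspan4 is highest at ZT18, of Tars at ZT22 and of Trib3 at ZT10.

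Among the other called sites, that of Igfbp4 averaged 4523 CPM at ZT2, 3916 at ZT6, 5439 at ZT10, 6519 at ZT14, 9255 at ZT18 and 6718 at ZT22 in polysomal RNA (ratio 2.27, adjusted p 0.00162) and was called in wild-type total RNA with a ratio of 1.49 (adjusted p 0.000228). Cdkn1a averaged 47.5, 10.2, 6.92, 111, 82.8 and 179 CPM (SD 28.7, 2.59, 3.28, 187, 24.7 and 64.7, n = 5 each), with a fitted ratio of 24 (adjusted p 0.00198). At ZT14 the library of replicate 3 had 444 CPM and the other 4 had 9.77 to 42.8 CPM, with a mean of 27.7 CPM. Without replicate 3 the adjusted p was 2.74e-10, and without replicate 5 it was 0.0789. Cdkn1a averaged between 126 and 217 CPM at every time in total RNA labelled Bmal1-/-. Transcription factors among the called sites were Foxa3 (ratio 2.05, peak at ZT15.5), the C/EBP factor Cebpb (2.30, ZT11.9) and the clock-output factor Hlf (2.04, ZT11.6). Metabolic genes among them were Slc2a2, the liver glucose transporter (2.4, ZT11.3), Coq10b, a coenzyme Q-binding protein (5.24, ZT11.9), Dgat2, which forms triglycerides, and Mgll, which cleaves monoglycerides, with 2 sites. Rbm3, a cold-induced RNA-binding protein, was called in polysomal RNA (ratio 1.98, adjusted p 0.00166) and had adjusted p 0.365 in wild-type total RNA and 0.418 in nuclear RNA. The polysomal calls of Igfbp4, Foxa3 and Rbm3 held when each of the 5 replicates was left out. Those of Cebpb and Coq10b were lost without replicate 4 (adjusted p 0.10 and 0.0679) and that of Slc2a2 without replicate 2 or 6 (0.0961 and 0.0803). Dgat2 (adjusted p 0.0589 to 0.396) and 1 of the Mgll sites (0.0573 to 0.328) lost theirs without any 1 of the 5, and Hlf without any but replicate 3 (up to 0.328). The other Mgll site lost its call without replicate 3, 5 or 6 (up to 0.388).

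The E-box CACGTG, the letters bound by the BMAL1 and CLOCK pair and the same on both strands, was searched in the RefSeq promoters (GRCm38.p6, 250 bases before to 50 after the gene start). It was searched because a curve of 24 h was called at the 43 sites, although their peaks fell at different times. A gene was counted if any of its promoter windows held the motif, so genes with several windows had more chances of a match. Of the 38 genes, 33 had a window, and 7 of these 33 (21.2%) were counted. So were 171 of 1375 genes with an enriched site and a window (12.4%) and 2187 of all 27025 genes with a window (8.09%). The stretches of 3 of the 7 genes are shown with the motif in capitals, at chr7:141476317-141476346 for Tspan4, chr1:55052680-55052709 for Coq10b and chr6:88724356-88724385 for Mgll, all on the plus strand. The motif began 51, 78 and 44 bases before the gene start.
Tspan4: cccccatggagcCACGTGcagagccacgag
Coq10b: ggcggcactggaCACGTGcgtcagcctagc
Mgll: gggggccgggcaCACGTGgggccccggcgc

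These are matches of letters in a window, and binding was not measured.

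At the thresholds the sites ran on without a break. Lzts2 and Marcks lay just inside the fold and Gpcpd1, Mrps5 and Rbx1-ps just outside, with ratios that all round to 2.5. Trappc8 (1.04 CPM), Zfp280b (1.07 CPM) and Trp53rkb (1.08 CPM) were the sites nearest above the minimum level, and Scara5 (0.962 CPM), Atp11a (0.925 CPM) and Zfp41 (0.903 CPM) passed the fold but not the level.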

How the data were processed

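Mouse liver RNA was read by QuantSeq 3′ mRNA sequencing in 144 libraries. Per the submitters' processing notes, STAR 2.4.2a, edgeR, HOMER and the builds mm10 and GRCm38.p5 were used. The steps from reads to sites and the filter of the site list are not given in the sources used here. The authors deposited raw counts per site (86780 sites, 29199 of them in the filtered list) and per gene, with 1 column per library. Here, CPM was taken per column total over all sites. Gene spans and promoter sequences came from RefSeq GRCm38.p6, and a gene's strand from its promoter window. Of 2157 enriched sites in genes, 1704 had a gene of known strand, 453 took the site's strand, and 73 had more than 1 candidate gene. A site up to 1000 bases past a gene end was given to that gene. Among 19938 sites in 1 gene of known strand, 99.6% lay on its strand.

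For rhythm, a cosine and a sine term with a period of 24 h were fitted per series at sites with a mean of at least 1 CPM in the fit. The differences between series were tested with time as a factor at sites of at least 1 CPM in polysomal replicates 2 to 6 or wild-type total RNA. Both used edgeR 4.0.16 (robust quasi-likelihood F test, TMM) in R 4.3.3, with Benjamini-Hochberg adjustment at 0.05. DESeq2 1.42.0 was an alternative, and Python 3.11.15, pandas 2.3.3 and numpy 2.4.6 did the rest. On simulated counts at 21754 sites, the polysomal rhythm fit found 28 of 100 sites changed 2-fold and 3 of 100 changed 1.5-fold, with 2 false calls. For polysomal replicate 1 against total RNA labelled Bmal1-/- (25022 sites) it found 62 and 10 of 100 with 4 false calls, and for nuclear RNA 100 and 90 of 100 with 8. The simulated counts had the same dispersion at every site and no effect of replicate number. Changes were set only at sites above the lowest levels tested. These counts therefore do not give the power or the false calls of the fits to the real libraries.

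The sites, gene families and marker lists were chosen with earlier results of these data known. Named sites are the 10 highest by polysomal mean and by ratio, the 5 lowest rhythm p-values in polysomal RNA, the 5 highest and lowest called differences of polysomal replicate 1 and of nuclear RNA from total RNA labelled Bmal1-/-, the sites of the 5 genes with most enriched sites, and the 3 nearest each threshold. The sites given for place, gene ratio, globin, families, nuclear excess and further rhythms were named after their values were seen. A few items are not reported here.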

Additional observations from a re-analysis of the deposited data

Results flagged for a closer look

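In 61 groups of 4 to 10 libraries the highest or lowest library was checked for a gap to the others that Dixon's limit at 95% would mark, and 5 were found, where chance alone gives about 1 in 20 groups. At the Nme2 site the ZT22 library of polysomal replicate 1 had 3077 CPM, against 766 to 1298 CPM in the other 5. At the Plac8 site the ZT18 library of polysomal replicate 1 had 6.13 CPM, against 20.3 to 28.0 CPM. At the other Usp2 site (chr9:44094029-44094051) 1 polysomal library at ZT2 had 0.919 CPM, against 0 to 0.251 CPM. At the Trib3 site 1 polysomal library at ZT6 had 15.8 CPM, against 4.04 to 6.77 CPM. The enriched sites' summed share was 10.9% in polysomal replicate 4 at ZT22, against 12.5 to 12.6% in the other replicates of that time. What lies behind these libraries was not tested.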

How the results depend on the processing

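The number of sites depended on the fold and on the offset: 2170 became 4004 at 2-fold, 435 at 4-fold and 989 with an offset of 1 CPM. It was 1372 from polysomal replicate 1 alone, of which 815 were among the 2170, and 1698 with TMM-scaled CPM. Leaving out each replicate in turn gave 2078 to 2295. Counts of rhythmic sites depended on the fit, given as all sites and enriched sites. In polysomal RNA 396 and 43 became 781 and 112 with DESeq2, 156 and 15 with time as 6 levels, 40 and 5 from replicates 2 and 3 alone, and 160 to 371 and 16 to 40 when each replicate was left out (248 and 25 without replicate 2, 177 and 16 without 5, 160 and 16 without 6). In wild-type total RNA 2172 and 162 became 1121 and 78 with 6 levels, 1121 and 70 from replicates 1 to 3, 369 and 19 from replicates 4 to 6, and 1183 to 2224 and 77 to 146 when each was left out. In nuclear RNA 444 and 26 became 687 over all sites with DESeq2, 260 and 17 with 6 levels, 120 and 5 from replicates 1 to 3, 122 and 5 from replicates 4 to 6, and 245 to 398 and 15 to 25 when each was left out. The replicate block gave 720 and 96 in polysomal RNA, 703 and 46 in nuclear RNA and 3141 and 237 in wild-type total RNA, and under it Tspan4 in nuclear RNA (adjusted p 0.000326), Tars in wild-type total (0.0247) and nuclear RNA (0.0103) and the other Mgll site in wild-type total RNA (0.00466) were also called. In polysomal RNA, edgeR with time as 6 levels lost the calls of Slc2a2 (adjusted p 0.162), Dgat2 (0.108), Hlf (0.121) and both Mgll sites (0.479 and 0.430). Calls lost when 1 replicate was left out are given with the rhythms above. The 5 sites of lowest polysomal rhythm p kept their polysomal calls, but for the 3 losses from replicates 2 and 3 alone given below. The nuclear differences kept their calls. Replicate numbers were not taken as pairs and are not in the main fits. Libraries of the same number and series, at different times, correlated in their deviations at a mean of 0.27 in polysomal RNA, with 83 of 90 above 0.1. For libraries of other numbers the mean was -0.05, with 99 of 450 above 0.1. These means were 0.29 and -0.06 in wild-type total RNA, 0.23 and -0.05 in nuclear RNA and 0.27 and -0.05 in total RNA labelled Bmal1-/-. Of all 144 libraries, 87 correlated best with their own number. The main rhythm counts thus leave out a likeness between libraries of the same number.

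Of the enriched sites lower in polysomal replicate 1 than in total RNA labelled Bmal1-/-, 34 became 64 with replicates 1 to 3 of the latter alone. Of those lower in nuclear RNA, 341 became 211 at a mean of at least 10 counts and 548 without TMM factors. For polysomal replicate 1 minus nuclear RNA, 6772 higher sites became 4385 at 10 counts, and 277 lower enriched sites became 176 without TMM factors. Both Usp2 sites (adjusted p 0.341 and 0.605) and Trib3 (0.406) were no longer called from polysomal replicates 2 and 3 alone. The cause of these changes was not tested beyond the smaller numbers of libraries or sites that some of them use. None of the values recomputed changed direction.

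Depth limits the lowest sites, where 1 CPM is a few counts in a library. Levels are shares of a library, so a higher share in polysomal RNA can go with a lower share of other RNA. RNA yield was not analysed here.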
